A study of Mus musculus with 2 samples.

Results

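The genes described here are 10 immediate early genes, Fos, Fosb, Jun, Junb, Jund, Egr1, Ier2, Atf3, Btg2 and Dusp1, out of 43346 genes in the deposited tables. They were chosen by name, and all 10 were found through their Ensembl gene identifiers. The study measured total RNA of embryonic mouse intestine (strain B6NCrl, day 14.5) in 2 libraries, which form the only group. Each library came from the intestine of 1 pup, collected on day 17 (replicate 1) or day 15 (replicate 2) of the same month, with no treatment named. Both libraries started from 10 ng of RNA longer than 200 nucleotides, and the labels number them as biological replicates 1 and 2. They share a donor record, a pup number and a dam number and differ in collection day, so they are taken here as separate embryos on that label alone. The labels also give a pooled sex, although each library is from a single intestine. No undissected tissue and no other time point are among the samples, so a response to dissection and the level in the living embryo cannot be told apart here. Embryo, collection day and library cannot be told apart either.

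Immediate early genes are transcribed within minutes of a growth factor, stress or mechanical stimulus, without new protein synthesis. Their promoters are held ready by factors such as serum response factor, its ternary complex partners and CREB, which MAP kinases and other kinases activate. Fos and Jun proteins pair through leucine zippers to form AP-1, the Egr proteins are zinc finger activators, and Dusp1, a MAP kinase phosphatase, feeds back on the kinases. Many of the messages are short-lived, and handling of tissue is a known trigger of the same genes.

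The levels of the 10 genes spanned from under 1 TPM to nearly 60 TPM. TPM counts transcripts after correction for their length, so genes can be compared by it. Ier2, Jun, Jund and Btg2 lay above 25 TPM in both libraries, whereas Fos, the best-known member, lay near 2 TPM and Fosb near the detection floor. At TPM 1 or more in both libraries 9 of the 10 genes were detected, against 61.3% of 21474 protein-coding genes. The median of all 10 genes, Fosb included, was 12.3 TPM by the mean of both libraries. It lay below the 18.4 TPM of protein-coding genes, a median over detected genes only. The sum over the 10 genes was 200 TPM in replicate 1 and 210 TPM in replicate 2.

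The tables held 32938592 and 32371363 estimated counts in genes. Their counts differed by far more than sampling error (chi-square divided by its degrees of freedom 15.3, 17802 genes), so they were not 1 library deposited again. All 4 listed markers each of epithelium, mesenchyme, smooth muscle, enteric neurons, endothelium and macrophages were detected in both libraries, but not at the same levels. In replicate 2 the intervals of 3 of 4 smooth muscle markers were lower (sums of 3061 and 2857 TPM), as were 2 of 4 of enteric neurons (191 and 173 TPM) and 2 of 4 of endothelium (96.2 and 89.8 TPM). Of the epithelial markers 2 of 4 were higher (1300 and 1411 TPM), and of the mesenchymal markers 2 were higher and 2 lower (2602 and 2480 TPM). Intervals were higher in replicate 2 for 7.23% and lower for 17.9% of all 11324 genes averaging TPM 5 or more. Macrophage markers summed to 113 and 111 TPM. The 7 pancreas markers summed to 8.18 TPM in replicate 1 and 1036 TPM in replicate 2. In replicate 1 Ctrb1, Ins2 and Ptf1a among them had 0 counts, and all 6 pancreas markers averaging TPM 5 or more had higher, non-overlapping intervals in replicate 2. The 4 erythroid markers summed to 3355 and 4993 TPM. The 4 liver markers summed to 102 and 107 TPM but moved in opposite directions, with Ttr higher in replicate 2 (29.98 and 44.28 TPM) and Afp (24.88 and 17.31 TPM) and Alb (0.82 and 0.13 TPM) lower. The part of these cells in the differences between embryos given below was not tested. In whole tissue, fewer cells of a type and less RNA per cell cannot be told apart.

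**Figure D1:**
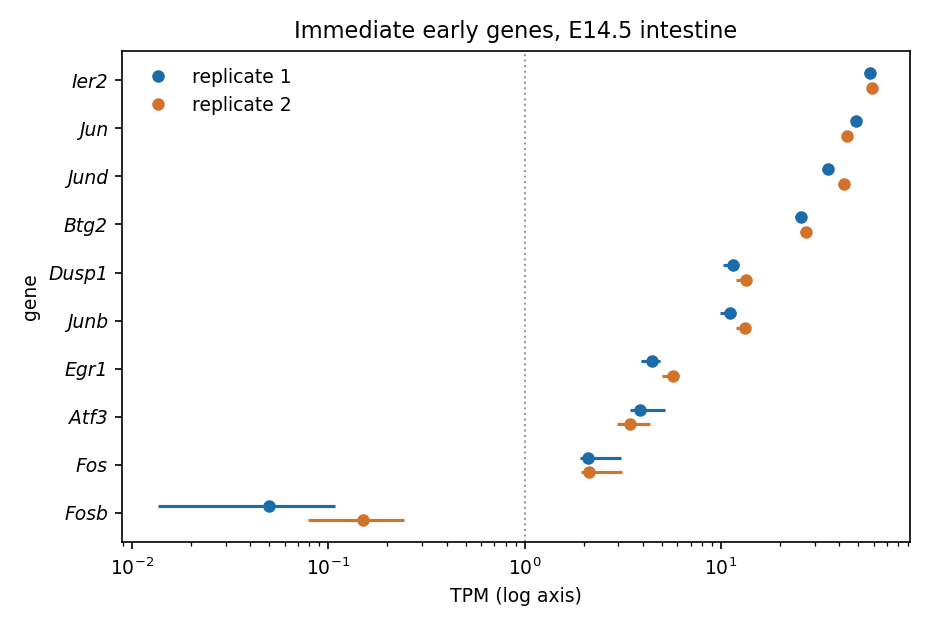
Level of each of the 10 genes in TPM (log axis) in replicate 1 (blue) and replicate 2 (orange). Points are deposited TPM values, lines the deposited intervals, and the dotted line marks TPM 1. The genes run from Ier2 at 57.73 and 59.09 TPM down to Fosb at 0.05 and 0.15 TPM, which alone lies left of the line.

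Among the Jun proteins, the AP-1 subunits that can pair with themselves as well as with Fos proteins, Jun itself (ENSMUSG00000052684.4, chromosome 4, 95049034 to 95052222, minus strand; all gene positions are GENCODE M21 on GRCm38) stood at 48.61 TPM in replicate 1 and 43.85 TPM in replicate 2, a mean of 46.2 ± 3.37 TPM (SD, n = 2). Its deposited interval, which covers the uncertainty of the estimate within a library, ran from 45.9 to 49 TPM and from 41.3 to 44.3 TPM, so the library intervals did not overlap and replicate 2 was lower. Jund, the subunit usually described as constitutive (ENSMUSG00000071076.5), stood at 35 and 42.37 TPM, a mean of 38.7 ± 5.21 TPM (SD, n = 2), with intervals of 32.6 to 35.7 and 39.7 to 43 TPM. Here replicate 2 was the higher library, again without overlap. Junb, often described as an antagonist of Jun (ENSMUSG00000052837.5, chromosome 8, 84974484 to 84978718, minus strand), stood at 11.15 and 13.28 TPM, a mean of 12.2 ± 1.51 TPM (SD, n = 2). Its intervals, 9.87 to 11.9 and 11.9 to 14.1 TPM, touched at their rounded bounds and did not overlap.

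The makeup of the Jun family, which no scaling of a library changes, was not the same in the embryos. Jun held 51.3% of the summed TPM of Jun, Junb and Jund in replicate 1 and 44.1% in replicate 2. Jund held 36.9% and 42.6%, and Junb 11.8% and 13.3%. The family sum was 94.8 and 99.5 TPM. All 3 genes have a single exon in GENCODE M21, and each has 1 transcript in the tables.

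Counts of Jun and Jund were not whole, at 3488.65 and 3182.32 for Jun and 2258.91 and 2765.67 for Jund, as arises when reads are divided among features they fit alike. The antisense gene Gm11175 (chromosome 8, 70699162 to 70700080) lies wholly within Jund (chromosome 8, 70698949 to 70700616, plus strand) and was listed at 61.4 and 67.1 TPM, from 633 and 699 counts. Whether strand was used in counting is not given in the sources used here, and without it the reads of this pair cannot be told apart. With the counts of both genes added, an alternative chosen after the values were seen, the ratio of replicate 2 over replicate 1, each count taken per library total, was 1.22, against 1.25 for Jund alone. The Jund model in the tables is 2878 bases long, against 1668 bases in GENCODE M21, and its TPM is per length of the longer model. The difference of 1210 bases equals the distance by which the RefSeq start of Jund lies before the M21 start. Another alternative, chosen after the values were seen, kept all counts over the shorter length. It would give Jund 62 and 75 TPM, above Jun and Ier2 in both libraries. Jund would then hold 50.9% and 56.8% of the Jun family, with Jun at 39.9% and 33.2%. Reads from the bases that the shorter model lacks were not taken out, so these Jund values may be too high. Junos, antisense to Jun over 689 bases, was listed at 1.88 and 3.08 TPM. The gene span of Junb shares 351 bases with Prdx2 on the other strand, which was at 640 and 597 TPM. The Junb transcript in the tables, 1840 bases long, covers only part of that span. Counts of Junb were whole, at 451 and 543.

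Fos, whose protein needs a Jun partner to bind DNA (ENSMUSG00000021250.9, chromosome 12, 85473890 to 85477273, plus strand), stood at 2.10 TPM in replicate 1 and 2.12 TPM in replicate 2, from 98 and 100 counts. The libraries were nearly equal, and the deposited intervals of 1.91 to 3.08 and 1.93 to 3.13 TPM overlapped almost fully. Fosb, known for a shortened splice form that accumulates in neurons (ENSMUSG00000003545.2, chromosome 7, 19302696 to 19310051, minus strand), had 4 and 13 counts, or 0.05 and 0.15 TPM. The count ratio per library total was 3.31, with an exact binomial interval of 1.02 to 13.9 that covers counting error only, and the deposited intervals of 0.0136 to 0.108 and 0.0787 to 0.242 TPM overlapped. A floor of 3 counts corresponds to 0.0375 and 0.0346 TPM for this gene, so replicate 1 lay close to it. The tables hold 1 transcript of Fosb, so its splice forms were not separated.

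Most of the Fos family's level came from a gene outside the 10. Fosl2, a Fos-related AP-1 subunit, was at 7.44 and 7.46 TPM and held 76.1% and 75.1% of the summed TPM of Fos, Fosb, Fosl1 and Fosl2. Fos held 21.5% and 21.3%, and Fosb 0.511% and 1.51%. The Jun family sum was 9.69 times the Fos family sum in replicate 1 and 10.0 times in replicate 2, and Jun alone was 23.1 and 20.7 times Fos. The family ratio, too, rests on the longer Jund model.

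**Figure D2:**
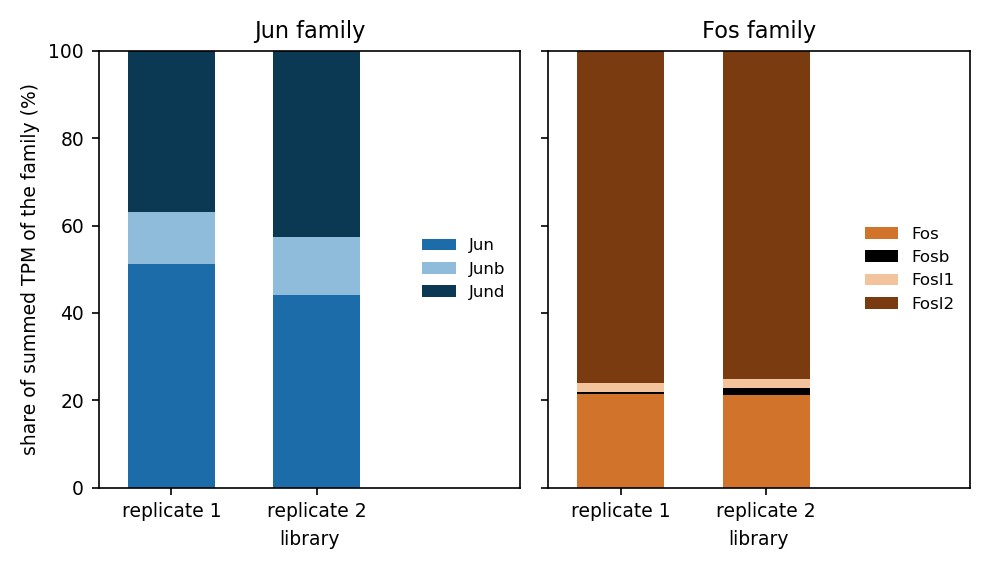
Share of each gene in the summed TPM of its family (%), for Jun, Junb and Jund on the left and Fos, Fosb, Fosl1 and Fosl2 on the right, in each library. Jun holds 51.3% in replicate 1 and 44.1% in replicate 2, with Jund at 36.9% and 42.6%, and Fosl2 holds 76.1% and 75.1% of the Fos family.

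Atf3, a stress-induced factor of the ATF/CREB class that also pairs with Jun proteins (ENSMUSG00000026628.9, chromosome 1, 191170296 to 191218039, minus strand), stood at 3.86 and 3.44 TPM, with overlapping intervals of 3.43 to 5.16 and 2.95 to 4.34 TPM. Egr1, the zinc finger activator (ENSMUSG00000038418.7, chromosome 18, 34859823 to 34864984, plus strand), stood at 4.48 and 5.68 TPM from 318 and 408 counts, a mean of 5.08 ± 0.849 TPM (SD, n = 2). Its intervals, 3.90 to 4.88 and 5.01 to 6.12 TPM, did not overlap, with replicate 2 higher. The co-repressors of Egr1, Nab1 and Nab2, were detected in both libraries, at 8.03 and 8.67 TPM and at 5.81 in each.

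Ier2, a nuclear protein of the immediate early response (ENSMUSG00000053560.4, chromosome 8, 84661331 to 84662852, minus strand), stood at 57.73 and 59.09 TPM, rank 2594 among 21474 protein-coding genes. It was the highest of the 10 genes with the lengths in the tables, though not with all Jund counts kept on the shorter Jund model. The embryos differed by 0.03 in log2(TPM + 1), and the intervals of 53.8 to 58.8 and 55.2 to 60.2 TPM overlapped. Btg2, an anti-proliferative protein that recruits the CCR4-NOT deadenylase (ENSMUSG00000020423.6, chromosome 1, 134075170 to 134079120, minus strand), stood at 25.71 and 27.08 TPM, also with overlapping intervals. Dusp1 (ENSMUSG00000024190.6, chromosome 17, 26505590 to 26562128, minus strand) stood at 11.46 and 13.34 TPM, with intervals of 10.2 to 12.3 and 12.0 to 14.3 TPM that overlapped slightly. Its span shares 640 bases with Ergic1 on the other strand, which was at 96.6 and 94.9 TPM. These bases begin at 26561489, far upstream of the RefSeq start of Dusp1 at 26508472. Counts of Dusp1 were whole, at 488 and 568. Ier2 and Junb lie 312 kb apart on chromosome 8.

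In the order of mean level with the lengths in the tables, Ier2, Jun, Jund, Btg2, Dusp1, Junb, Egr1, Atf3, Fos and Fosb, all neighbours except Dusp1 and Junb had ranges over the 2 libraries that did not overlap. The deposited intervals within a library were less clear for some neighbours. Those of Jun and Jund, at 43.85 and 42.37 TPM, overlapped in replicate 2. Those of Egr1 and Atf3, at 4.48 and 3.86 TPM, overlapped in replicate 1, and those of Atf3 and Fos, at 3.44 and 2.12 TPM, in replicate 2.

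Between the embryos, the 7 of 10 genes that averaged TPM 5 or more were compared. Of these 3 had higher intervals in replicate 2 (Jund, Junb and Egr1), where 7.23% of all 11324 such genes did, and 1 had a lower interval (Jun), where 17.9% did. None of the 7 also differed by 1 or more in log2(TPM + 1), a rule that 0.495% of the 11324 genes passed. The log2 differences, replicate 2 minus replicate 1, were 0.29 for Egr1, 0.27 for Jund, 0.23 for Junb, 0.20 for Dusp1 and -0.15 for Jun. Over all 10 genes the median difference was 0.10 and its median size without sign 0.14, and with spike-in scaling the median was 0.04. Over the 7 genes alone it was 0.20 with a size of 0.20, against -0.05 and 0.11 over all 11324 genes. Differences of -0.46 to 0.49 held the middle 95% of genes from 5 to 20 TPM and -0.32 to 0.31 that of genes from 20 to 100 TPM, and each of the 7 genes lay inside the range of its class. With 1 library per embryo no test between embryos was possible.

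Scaling moved part of this. With TMM factors of edgeR 53.6% of all non-overlapping genes were higher in replicate 2, with DESeq2 size factors 53.8%, with intervals of FPKM 45.6% and with ERCC spike-in scaling 6.71%, against 28.7% as deposited. Jund stayed higher and Jun stayed lower in replicate 2 under each of these 4 settings. Egr1 and Junb no longer had separate intervals with spike-in scaling, and Dusp1 gained them with TMM and DESeq2. The count of higher members was thus 4 with TMM or DESeq2, where 12.2% of all 11324 genes were higher, 3 with FPKM intervals (10.6%) and 1 with spike-in scaling (2.82%). The count of lower members was 1 in each, where 10.5%, 10.5%, 12.6% and 39.1% of all genes were lower with TMM, DESeq2, FPKM intervals and spike-in scaling.

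**Figure D3:**
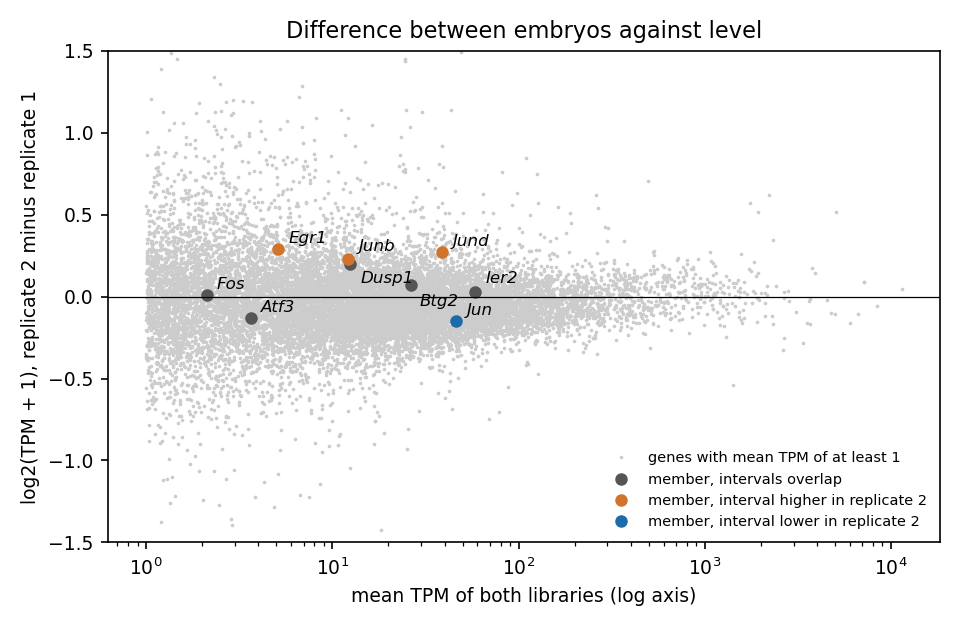
Difference in log2(TPM + 1), replicate 2 minus replicate 1, against mean TPM of both libraries (log axis) for the 15411 genes averaging TPM 1 or more (grey), of which 210 lie beyond the plotted limits of 1.5 in size. Orange members have higher and blue members lower deposited intervals in replicate 2, dark grey members overlap and Fosb is too low to be shown. Jund at 0.27 and Jun at -0.15 lie on opposite sides of 0 at similar levels.

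Transcript tables resolved 4 of the 10 genes into several transcripts. Dusp1 was mostly its coding transcript, at 10.19 and 10.91 TPM. Transcripts annotated as retaining an intron held 11.1% of Dusp1 in replicate 1 and 18.2% in replicate 2, from 40.4 and 83.3 counts, but the intervals of each of the retained-intron transcripts overlapped between libraries. Egr1 was split alike in both, with 91.64% and 91.59% in the transcript of 3036 bases. All TPM of Fos was given to its coding transcript of 2108 bases, whereas the deposited posterior means gave that transcript 80.11% and 78.79%. Atf3 was given wholly to the transcript of 1984 bases in replicate 1 and split in replicate 2, at 50.67% and 49.33%, with a coding transcript of 1906 bases. The intervals in replicate 2, 0.482 to 3.19 and 0.00019 to 2.77 TPM, were so wide that this split was not resolved, and those of both transcripts overlapped between libraries.

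**Figure D4:**
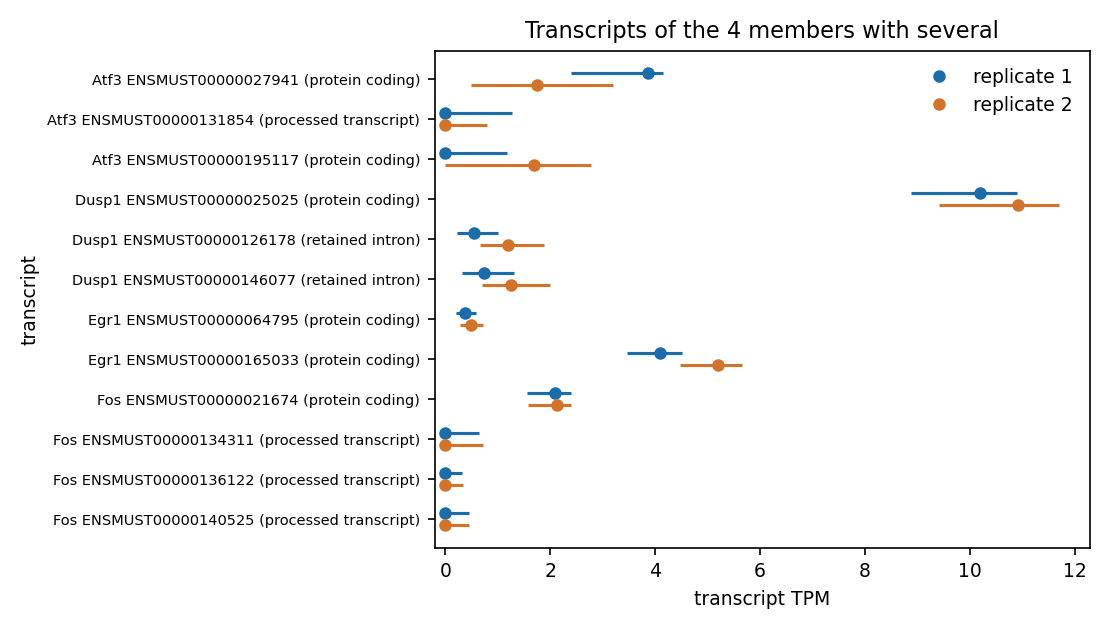
TPM of each transcript of Atf3, Dusp1, Egr1 and Fos, the 4 genes with more than 1 in the tables, in replicate 1 (blue) and replicate 2 (orange). Points are deposited values and lines deposited intervals. The long overlapping lines of Atf3 show that its split in replicate 2 is unresolved, and both retained-intron transcripts of Dusp1 lie under 2 TPM.

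Promoter windows of RefSeq (GRCm38.p6, from 250 bases before to 50 bases after the start) were present for 8 of the 10 genes, all but Egr1 and Ier2. The motifs found in most of them were GGGCGG, the GC box of Sp factors (35.7% of all windows), and TGACG, the part common to cAMP response elements that CREB and ATF factors bind. Searched on both strands, each was in 6 of the 8 windows, and TGACG was in 20.8% of all 32851 windows of the same length. The full palindrome TGACGTCA, which contains TGACG on each strand, was in Btg2 and Dusp1, against 1.79% of all windows. The stretches around TGACG are printed because 6 of these genes hold it and it is rarer than GGGCGG over all windows. They run 5′ to 3′ on the gene's strand, with TGACG (or CGTCA, its reverse complement), TGACGTCA, TATAAA and GCGGGGGCG in capitals.
Fos, plus strand, chr12:85473746-85473877: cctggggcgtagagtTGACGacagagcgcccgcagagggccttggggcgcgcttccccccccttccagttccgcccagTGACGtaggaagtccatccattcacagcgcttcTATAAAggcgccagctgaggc
Dusp1, minus strand, chr17:26508593-26508678: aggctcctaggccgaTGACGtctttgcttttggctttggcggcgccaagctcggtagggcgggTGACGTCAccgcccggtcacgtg
Btg2, minus strand, chr1:134079299-134079336: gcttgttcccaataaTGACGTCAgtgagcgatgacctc
Fosb, minus strand, chr7:19310072-19310120: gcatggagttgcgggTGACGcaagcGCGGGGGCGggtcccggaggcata
Junb, minus strand, chr8:84978835-84978869: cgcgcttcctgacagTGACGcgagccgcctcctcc
Atf3, minus strand, chr1:191183334-191183355: ctattaatagcattaCGTCAgc

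Counted from the start base as 0, TGACG began at -129 and -66 in Fos, at -191 and -143 in Dusp1, at -166 in Btg2, at -60 in Fosb, at -106 in Junb and at -7 in Atf3, the last on the reverse strand. The TATAAA of Fos began at -33, and Junb held this motif at its RefSeq start base, 30 bases before its M21 start (13.6% of all windows). GCGGGGGCG, a sequence Egr proteins bind, was in Fosb (2.91%). None of the 8 windows held a CArG box, the serum response factor site (1.63%), TGACTCA of AP-1 (5.2%), GCGTGGGCG of Egr (0.612%) or CCGGAAGT of Ets factors (3.89%). The windows are short, and sites further away are not covered. The RefSeq starts of Atf3, Dusp1 and Fosb lie inside the GENCODE M21 gene spans. Those of Jund, Btg2 and Junb lie 1210, 35 and 30 bases before the M21 start. A match describes letters, not a site in use. Genes with TGACG ranged from 0.1 TPM for Fosb to 26.4 TPM for Btg2, and Jun and Jund, without it in their windows, were at 46.2 and 38.7 TPM.

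Message turnover is the other known control of these genes, through AU-rich elements in the 3′ untranslated region that contain ATTTA. In GENCODE M21 models, 9 of the 10 genes held ATTTA in that region, all but Ier2, against 65.3% of 12198 detected protein-coding genes. Longer regions hold more matches. The share was 62.2% among detected genes with a region of 500 to 1000 bases and 83.4% with 1000 to 2000 bases. The density was 5.8 per 1000 bases in Dusp1, 4.91 in Fos, 4.12 in Junb and 3.24 in Jun, with a median of 2.4 over the 10 genes against 1.2 over the detected genes. The longer TTATTTATT, the core of such elements, was in Dusp1 and Fos, against 6.75% of detected genes. Their regions have 690 and 815 bases, and among detected genes with 500 to 1000 bases 4.19% held it. It is shown here in capitals because Dusp1 and Fos alone of the 10 carry it.
Fos, plus strand, chr12:85477103-85477131: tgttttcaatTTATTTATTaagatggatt
Dusp1, minus strand, chr17:26506159-26506187: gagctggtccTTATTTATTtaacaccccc
Dusp1, minus strand, chr17:26505870-26505898: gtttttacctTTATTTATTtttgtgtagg

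Related genes were described from lists. Beside the interval counts of each list, 7.23% of all 11324 genes averaging TPM 5 or more were higher in replicate 2 and 17.9% lower. Of 19 other AP-1 and related bZIP genes 16 were detected, led by the stress response factor Atf4 at 97.85 and 105.87 TPM, Atf2 at 58.22 and 53.33 TPM and Atf1 at 34.59 and 37.16 TPM. The 3 below TPM 1 were the AP-1 repressor Jdp2 at 0.71 and 0.62 TPM, Batf2 at 0.23 and 0.84 TPM and the Fos-related Fosl1 at 0.19 and 0.21 TPM. Of the 12 at TPM 5 or more, 2 had higher and 1 lower intervals in replicate 2.

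Of 32 other immediate early genes 25 were detected, with a median of 6.34 TPM. Zfp36l1, which encodes a protein that binds AU-rich elements, led at 128.46 and 123.46 TPM, ahead of Myc at 98.53 and 102.54 TPM and the kinase gene Plk2 at 57.10 and 61.00 TPM. The remaining 7 included all other Egr genes, named here after their values were seen. Egr2 had 8 and 2 counts, Egr4 had 2 and 0, and Egr3 had 0 in both libraries, where a floor of 3 counts per library applies. At TPM 5 or more, 4 of 19 genes had higher and 1 had lower intervals in replicate 2.

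All 21 upstream factors and kinases were detected, with a median of 22.3 TPM. The kinase genes Map2k2 at 136.06 and 143.78 TPM and Rps6ka1 at 94.47 and 90.65 TPM were among the highest. Srf, which encodes serum response factor and is named outside the rule, was at 6.39 and 5.75 TPM. Of 20 genes at TPM 5 or more, none had higher and 3 had lower intervals in replicate 2.

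All 15 other MAP kinase phosphatases and feedback inhibitors were detected, with the receptor signalling inhibitor Spry2 at 38.13 and 39.19 TPM, the phosphatase gene Dusp6 at 33.89 and 31.16 TPM and Dusp16 at 16.79 and 14.59 TPM. Dusp1 thus stood below Spry2, Dusp6 and Dusp16 in both libraries, and by mean level below further genes of this list. Of 13 compared, 2 had lower intervals in replicate 2 and none higher. All 8 genes of the BTG and TOB family and its CCR4-NOT partners were detected, led by the deadenylase genes Cnot7 at 93.65 and 85.83 TPM and Cnot8 at 71.67 and 67.83 TPM and by Btg1 at 46.95 and 47.61 TPM, and 1 of the 8 had a higher interval in replicate 2.

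Of 16 heat shock and stress genes 15 were detected. The constitutive chaperone gene Hspa8 was at 2136.52 and 2076.60 TPM, Hsp90ab1 at 1272.47 and 1221.70 TPM and Hsp90aa1 at 686.23 and 745.17 TPM. The inducible Hspa1a, named outside the rule, was at 3.52 and 2.72 TPM and Hspa1b at 0.19 and 0.36 TPM. These last are near-identical copies, so the split of reads between them is uncertain. Of 12 compared, 4 had higher and 2 had lower intervals in replicate 2. No list other than that of the pancreas held a gene that also differed by 1 or more in log2(TPM + 1).

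**Figure D5:**
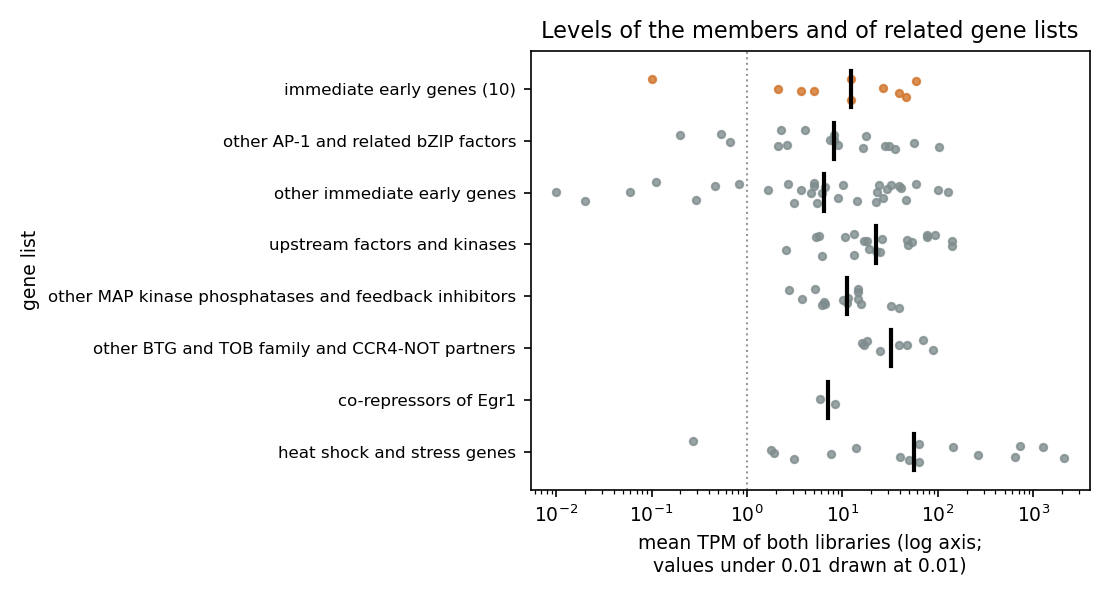
Mean TPM of both libraries (log axis) for each of the 10 immediate early genes (orange) and for the members of 7 related lists (grey). Each point is a gene, the black bar marks the median of a list and the dotted line TPM 1. The 10 genes have a median of 12.3 TPM, the other immediate early genes 6.34 TPM with the most points left of the line, and the upstream factors and kinases 22.3 TPM with none.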

How the data were processed

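Each library has a gene table and a transcript table. Per the notes deposited with the files, alignments were to mm10, the annotation was GENCODE M4 and libraries were quantified 1 by 1. Which tool and version made them, and whether it used strand, is not given in the sources used here. For each gene and transcript the authors deposited expected counts, TPM and FPKM. The percent share of each isoform was deposited in the transcript tables. The bounds of an interval of TPM, deposited as well and taken here as scores, belong to the posterior mean, so a TPM can lie outside them. Their level is not given in the sources used here.

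Separately, gene names, spans and transcript types came from GENCODE M21 on GRCm38, matched for 42462 of 43346 identifiers, and promoter sequences from RefSeq GRCm38.p6. The 10 genes and all lists were chosen with earlier results of these data known. Named genes were the 10 members and, of each of the 7 lists, the 3 highest by mean TPM, those past the fold rule, and up to 4 with a TPM below 1 in 1 library or both (none where more than 4 are). A gene that this rule names is not reported here. Likeness of patterns was not computed over 2 libraries. Differences were log2(TPM + 1), replicate 2 minus replicate 1. Scaling factors came from expected counts rounded to whole numbers, with edgeR 4.0.16 and DESeq2 1.42.0, and from 53 ERCC spike-ins. The search for AU-rich elements was added after the values were seen. Counting intervals and the floor of 3 counts leave out all error but that of counting, and copies of 1 molecule made by amplification are not told apart. The labels number the libraries as biological replicates, and ± or a range shows only the spread over these 2 libraries.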

Additional observations from a re-analysis of the deposited data

How the results depend on the processing

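No paired analysis was possible because there is 1 group. Without replicate 1 or without replicate 2, 9 genes stayed detected, the median level ranged from 11.3 to 13.3 TPM, and the family shares ranged from 44.1% to 51.3% for Jun, 36.9% to 42.6% for Jund, 21.3% to 21.5% for Fos and 75.1% to 76.1% for Fosl2. TPM rescaled over nuclear protein-coding genes raised the median level from 12.3 to 16.1, since the total it is a share of was smaller. With spike-in scaling, which shifted replicate 2 by -0.10 on the log2 scale, 1 member in place of 3 had a higher interval in replicate 2. TMM and DESeq2 shifted it by 0.05 each. With all Jund counts kept over its shorter GENCODE M21 length, added after the values were seen, Jund held 53.8% and Jun 36.6% of the Jun family, in place of 39.8% and 47.7%. The mean level of Jund was then 68.5 in place of 38.7 TPM, which may be too high for the reason given above. By estimated counts, which are not per length, Fos held 8.87% and Fosl2 89.7% of the Fos family. Of 70 recomputed member differences, rounded to 2 decimals, 66 kept their sign. The exceptions were Btg2, Fos and Ier2 with spike-in scaling, and Fos with 5 in place of 1 added to TPM, where the difference rounded to 0.00. Of the 70, 3 moved by more than their counting interval's reach. Members counted as lower in replicate 2 stayed at 1 under all alternatives run. At 4 and 13 counts Fosb allows no statement on a difference beyond its interval.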

Other observations

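Among genes of the related lists, chosen here after their values were seen, a few differed more between the embryos than any of the 10 immediate early genes above TPM 1. Tob1, an anti-proliferative relative of Btg2, was at 13.18 TPM in replicate 1 and 18.83 TPM in replicate 2, with intervals of 11.9 to 13.8 and 17.2 to 19.5 TPM. The Krüppel-like factor genes Klf2 and Klf4 were at 3.94 and 5.43 TPM and at 4.62 and 6.18 TPM, higher in replicate 2 with separate intervals. Dusp2, a nuclear MAP kinase phosphatase gene best known from leukocytes, was at 1.94 and 3.5 TPM from 67 and 119 counts. Dusp14 went the other way, at 16.20 and 12.51 TPM. Each embryo has 1 library, so none of these differences was tested.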
